A study of Homo sapiens with 12 samples.

Results

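The shutdown of AF4-MLL was followed by comparing chromatin accessibility in HEK293T cells at day 28 (d28) with day 3 (d3). HEK293T is a human embryonic kidney cell line. The comparison used 6 of the 12 ATAC-Seq samples, with 3 biological replicates at each day. Among the 52889 gene entries of the count table, 37 mitochondrial genes and 412 nuclear copies of mitochondrial genes were set aside. Of the 52440 entries left, 15637 had a mean of at least 10 reads over the 6 samples, and these are the genes described here. Entries with fewer reads were not tested.

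Both groups carried a constitutively expressed MLL-AF4 transgene, stably inserted by a Sleeping Beauty vector and kept as a drug-selected pool of cells. At d3 the same cells also carried an inducible AF4-MLL vector, which had been switched on with 1 µg/ml doxycycline for 48 h. At d28 the cells had grown for 25 days without doxycycline, and the labels name MLL-AF4 as their sole transgene. The AF4-MLL vector was transfected transiently and was no longer selected for after d3. By the study's methods, blasticidin was given together with doxycycline for the 48 h. The cells of d3 and d28 thus differ in recent transfection, vector content, exposure to both drugs and time in culture. These cannot be told apart. Cells before the induction (d0, constitutive MLL-AF4, n = 3) and cells with the empty vector pSBTet-GP (Mock, n = 3) served as references.

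MLL-AF4 and AF4-MLL are the reciprocal products of the translocation t(4;11), which joins KMT2A (MLL), a histone H3 lysine 4 methyltransferase, with AFF1 (AF4), a scaffold of the super elongation complex, in infant and adult acute leukemia. In ATAC-Seq, the Tn5 transposase inserts sequencing adapters into open DNA, so that accessible genes, and above all active promoters, collect more reads. Mitochondrial DNA carries no nucleosomes and is cut freely.

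The 6 libraries were shallow for nuclear genes. The nuclear entries held between 312578 and 890458 reads at d28 and between 552178 and 613949 at d3, and did not differ detectably (two-sided exact permutation test, p = 0.8, adjusted p = 0.8 over 5 tests). The mitochondrial share of all reads was 65.5% ± 2.61 (SD, n = 3) at d28 and 39.4% ± 5.94 at d3, and the groups did not overlap (exact permutation p = 0.1, the smallest that 3 against 3 samples can give). Of 10 marker genes of HEK293 cells, all were kept, and their summed level ranged from 536 to 575 counts per 1000000 nuclear reads (CPM) at d28 and from 606 to 623 at d3. Of 12 blood cell markers, 5 were kept, with a summed level of 176 to 189 CPM at d28 and 202 CPM at d3 over all 12 and up to 3 of them without a read in a sample. Levels below are in CPM after TMM scaling, fold changes are on the log2 scale, and adjusted p-values come from edgeR's quasi-likelihood test over all 15637 genes.

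Few nuclear genes were called between d28 and d3, which at this depth does not show that the others stayed the same. At an adjusted p below 0.05, 8 entries were higher at d28 (0.0512% of the genes tested) and 10 were lower (0.064%), 18 in all (0.115%). The genes lower at d28 were led by HSPA5, the endoplasmic reticulum chaperone BiP, and included PPP1R15A, OAZ1, RHOB and TUBB4B. The higher entries were led by MIR6723, AL669831.3 and AC093809.1, which are set beside the mitochondrial reads below, followed by the protein-coding genes SCML1, SUSD2, SETMAR, ACP4 and LILRB5. For 17 of the 18 entries the 3 d28 samples did not overlap the 3 d3 samples, 8 above and 9 below. Over all genes tested, 1029 (6.58%) had every d28 sample above every d3 sample and 1202 (7.69%) had every one below. At an unadjusted p below 0.05, 654 genes were higher (4.18%) and 756 lower (4.83%). By the same test, d28 differed from d0 in 386 genes (2.47%) and from Mock in 376 (2.4%).

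Of the 18 calls, 4 held in all 20 alternative analyses, those of MIR6723, AL669831.3, AC093809.1 and HSPA5. The other 14 were not called by DESeq2, nor after all libraries had been thinned to the lowest nuclear total, and each was lost when at least 1 library was left out. Their direction never changed.

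**Figure D1:**
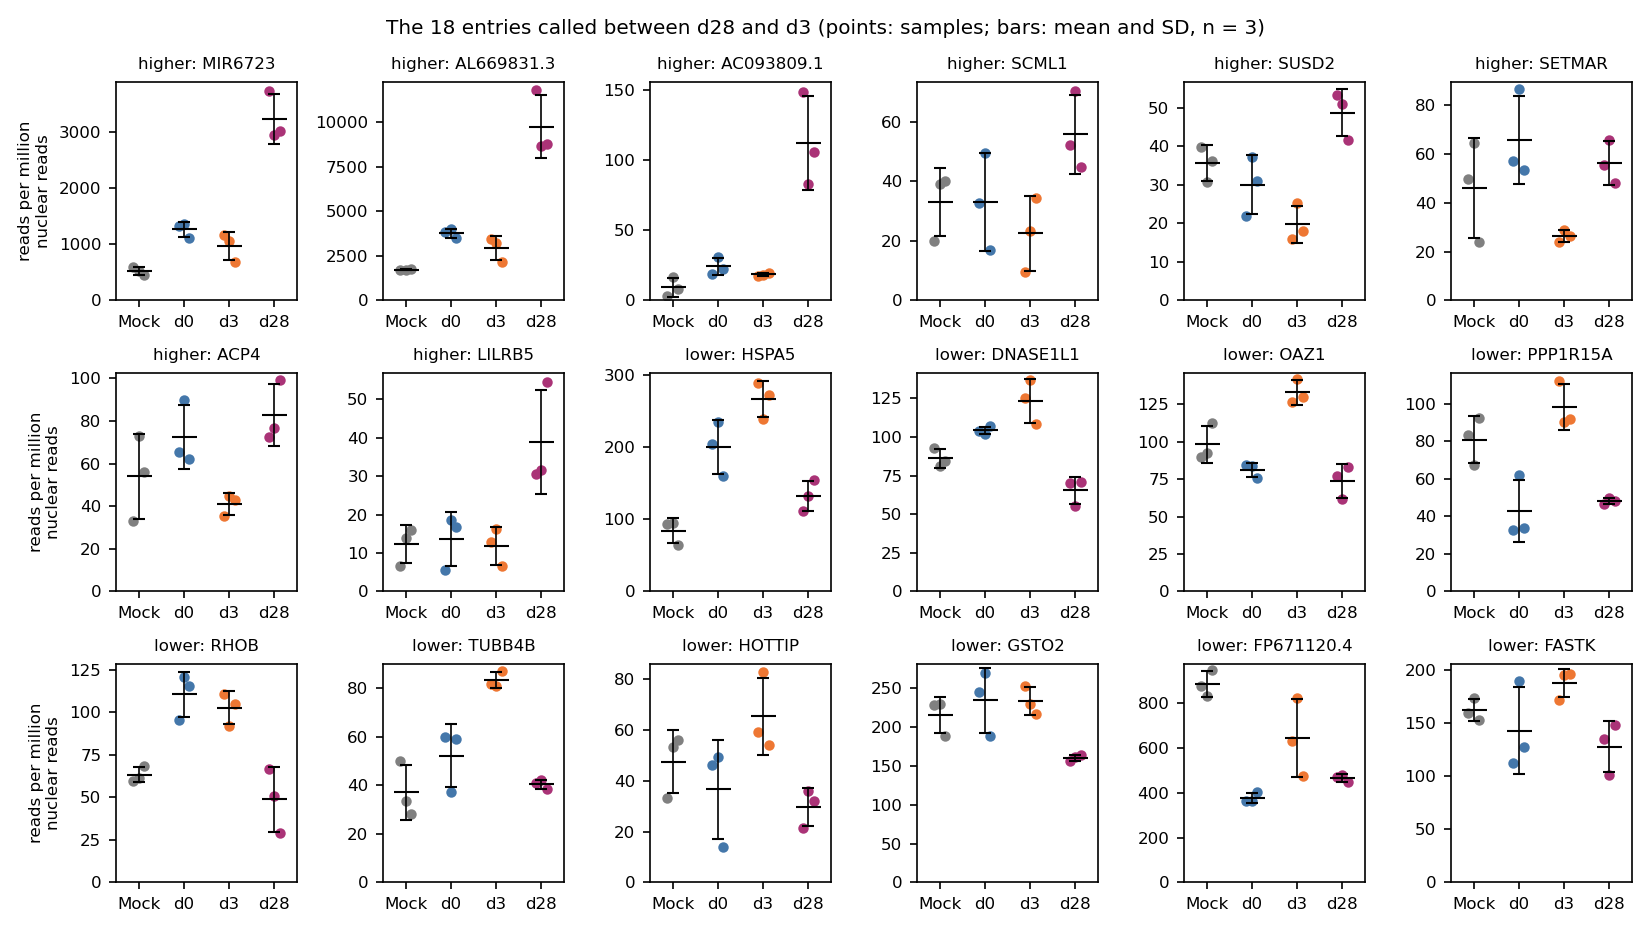
CPM (vertical axes) of the 18 called entries in each sample of Mock, d0, d3 and d28, where points are samples and bars the mean and SD of 3. The d28 points of HSPA5 lie between 112 and 154, below the d3 points at 239 to 289 and above Mock at 64.3 to 95.2.

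HSPA5 (ENSG00000044574) fell from d3 to d28 and had the smallest p of the 10 entries lower at d28. BiP binds unfolded proteins in the endoplasmic reticulum and holds the stress sensors there inactive, and its gene is a classical target of the unfolded protein response. HSPA5 had 289, 239 and 273 CPM at d3 and 112, 132 and 154 at d28. It had 205, 235 and 161 at d0 and 93.0, 95.2 and 64.3 in Mock. All d28 samples were thus below all d3 samples and below all d0 samples, but above all Mock samples. The log2 fold change from d3 to d28 was -1.07 ± 0.13 (SE; edgeR, adjusted p = 5.97e-11). Against d0, d28 was lower by a log2 fold change of -0.65 (adjusted p = 0.00695). The difference between d28 and Mock was 0.56 (adjusted p = 0.0946) and that between d3 and d0 was 0.43 (adjusted p = 0.074), so HSPA5 was not counted among the genes that first rose and then fell. It would be counted there without the filter on low counts or with normalization factors per chromosome. In the alternatives the change from d3 to d28 ranged from -1.14 to -0.94.

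The HSPA5 promoter is shown because it holds the element by which BiP is known to be induced. The gene lies on the minus strand of chromosome 9 (GRCh38.p14, 125234853 to 125241343), and RABEPK starts within 1 kb of it. The sequence covers chr9:125241294-125241593, from 250 bases before to 50 bases after the RefSeq start, 5′ to 3′ on the gene's strand. Capitals mark CCAAT on either strand and the CCACG that follows a CCAAT after 9 bases, the layout of the endoplasmic reticulum stress response element.
HSPA5: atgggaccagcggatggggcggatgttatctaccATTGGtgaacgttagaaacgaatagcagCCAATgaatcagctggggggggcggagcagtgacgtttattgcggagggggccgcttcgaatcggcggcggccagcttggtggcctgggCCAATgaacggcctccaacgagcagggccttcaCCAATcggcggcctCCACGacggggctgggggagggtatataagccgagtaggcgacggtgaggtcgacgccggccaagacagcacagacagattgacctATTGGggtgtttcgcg
The window held 5 copies of CCAAT, of which 3 were on the gene's strand, and 1 CCAAT followed after 9 bases by CCACG, at bases -66 to -48 from the start. Of 35116 RefSeq promoters of the same length, 34.6% held CCAAT on either strand and 27 promoters (0.0769%) held the paired layout. Among the 15982 promoters of kept genes the shares were 34% and 0.113%. The neighbour RABEPK had a log2 fold change of -0.34 (adjusted p = 0.552).

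The other genes of the endoplasmic reticulum stress response did not pass the test. Of the 35 genes of that list, all kept, HSPA5 was the 1 called, and the median log2 fold change was 0.06, beside -0.0035 over all genes. Of the 35, 14 (40%) lay below zero, beside 50.5% of all genes. By role, the calcium-binding chaperone CALR had -0.68, the disulfide isomerase P4HB -0.48 and the BiP cofactors SDF2L1 and DNAJB9 -0.39 each, none of them past the threshold. Going the other way, the folding genes ERO1A, CRELD2 and ERO1B had 0.50, 0.31 and 0.25 and the degradation gene DERL2 had 0.42, also not called. The chaperone HSP90B1 had 0.05 and HERPUD1, a part of the degradation machinery, had -0.08. The sensors ATF6, ERN1 and EIF2AK3 had 0.11, 0.05 and 0.22, and the transcription factor XBP1 had 0.30. Values near zero do not show that these genes stayed the same.

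The genes that reversed were those called between d3 and d0 in one direction and between d28 and d3 in the other. From d0 to d3, 124 genes were called higher (0.793%) and 122 lower (0.78%), 246 in all (1.57%). Of the 124, 3 were called lower at d28 than at d3, namely PPP1R15A, OAZ1 and FP671120.4. Of the 122, 1 was called higher, SETMAR. No gene was called in the same direction in both comparisons by edgeR, nor by DESeq2. At an unadjusted p below 0.05 in both comparisons, 172 genes first rose and then fell in value, 146 did the opposite, 5 were higher in both and 14 were lower in both. Both comparisons use the same d3 samples, so a high d3 value counts towards a rise in the first and a fall in the second.

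PPP1R15A encodes GADD34, the regulatory subunit that brings protein phosphatase 1 to eIF2α and ends the integrated stress response. It had 112, 90.0 and 92.0 CPM at d3. The d28 samples had 46.4, 49.5 and 48.1, and the d0 samples 32.8, 61.9 and 33.8. Mock had 83.1, 67.2 and 92.4. The d3 samples stood above all d0 and d28 samples, which overlapped each other. The d3 samples overlapped Mock, and the difference from Mock was 0.31 (edgeR, adjusted p = 0.568). PPP1R15A rose from d0 to d3 by 1.22 (adjusted p = 5.71e-04) and fell from d3 to d28 with a log2 fold change of -1.04 ± 0.20 (SE; adjusted p = 9.41e-04). The fall missed the threshold without d28 replicate 1 (adjusted p = 0.0588) and without d3 replicate 1 (adjusted p = 0.0741). It was the 1 gene called among the 26 kept genes of the integrated stress response. That list had a median of -0.05, with ATF4, its central transcription factor, at -0.14, DDIT3 at 0.05, TRIB3 at 0.04 and DDIT4 at -0.47, none of the 4 called.

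OAZ1 encodes antizyme, the inhibitor of ornithine decarboxylase that holds polyamine levels in check. OAZ1 had 127, 142 and 129.8 CPM at d3. Its d28 levels were 77.0, 61.5 and 83.4, and its d0 levels 84.6, 83.6 and 76.1. The d3 samples were again above all others of the MLL-AF4 line, and Mock had 89.7, 92.4 and 112.5. Between d3 and Mock the difference was 0.45 and not called (edgeR, adjusted p = 0.226). OAZ1 rose by 0.70 from d0 to d3 (adjusted p = 0.0222) and its change from d3 to d28 was -0.87 ± 0.16 (SE; adjusted p = 8.32e-04). That call was lost without d28 replicate 2 (adjusted p = 0.102). Of the 20 alternatives, 10 did not count OAZ1 as reversed, namely those without d28 replicate 2, without d0 replicate 1, 2 or 3, without d3 replicate 2 or 3, with factors per chromosome, with the length trend removed, with DESeq2 and with thinning. PPP1R15A was counted as reversed in 16 of the 20, and SETMAR and FP671120.4 in 10 each.

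SETMAR encodes a histone methyltransferase domain fused to a domesticated mariner transposase. It was the 1 gene that fell at d3 and rose again. SETMAR had 24.1, 28.8 and 26.3 CPM at d3. It had 57.3, 86.7 and 53.5 before, at d0, and 55.5, 66.0 and 48.1 after, at d28. Mock spread from 24.1 to 64.4, and the difference between d3 and Mock, -0.87, was not called (edgeR, adjusted p = 0.153). The change was -1.30 from d0 to d3 (adjusted p = 0.00304) and 1.13 ± 0.26 (SE) from d3 to d28 (adjusted p = 0.0219). The second call was lost without any 1 of the d3 replicates (adjusted p = 0.202, 0.0508 and 0.104 without replicates 1, 2 and 3), without d28 replicate 1 (0.104) and without d28 replicate 2 (0.284). SETMAR overlaps SUMF1 in the annotation, and SUMF1 itself had a log2 fold change of 0.13 (adjusted p = 0.915).

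FP671120.4 is 1 of several entries without a RefSeq match that had nearly the same levels. Reads may be divided among such copies, so its value is uncertain. It had 363 to 403 CPM at d0, 476 to 825 at d3 and 449 to 480 at d28, and was the 1 called entry whose d3 and d28 samples overlapped. Mock had 834 to 948, above all samples of the MLL-AF4 line. Against Mock, the log2 fold change of FP671120.4 was -0.46 at d3 (edgeR, adjusted p = 0.0045) and -0.91 at d28 (adjusted p = 5.88e-11). Its change from d3 to d28 was -0.45 ± 0.11 (SE; adjusted p = 0.0255). The call was lost without d3 replicate 1 (adjusted p = 0.0797), d3 replicate 2 (0.506, with a fold change of -0.24), d28 replicate 1 (0.192), 2 (0.181) or 3 (0.146), and d0 replicate 2 (0.0569). The like entry FP236383.3 had -0.42 (adjusted p = 0.0648).

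The promoters of the 3 reversed genes with a RefSeq entry, and of SCML1, the protein-coding gene with the smallest p among those higher at d28, are given with the same motifs in capitals, CCAAT on either strand and TGACGTCA, the full cyclic AMP response element. The first 3 were chosen after their values were seen.
PPP1R15A covers chr19:48872171-48872470, OAZ1 chr19:2269236-2269535, SETMAR chr3:4303119-4303418 and SCML1 chrX:17737243-17737542, all on the plus strand of GRCh38.p14. The window of SCML1 is placed on a start 365 bases downstream of the gene's first annotated base, and the other windows on the first base itself.
PPP1R15A: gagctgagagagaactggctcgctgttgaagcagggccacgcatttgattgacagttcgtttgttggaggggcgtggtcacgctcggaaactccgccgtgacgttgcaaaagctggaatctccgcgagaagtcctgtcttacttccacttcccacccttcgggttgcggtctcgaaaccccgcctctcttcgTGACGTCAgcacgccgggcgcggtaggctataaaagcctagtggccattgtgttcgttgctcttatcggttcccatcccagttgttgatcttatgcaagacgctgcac
OAZ1: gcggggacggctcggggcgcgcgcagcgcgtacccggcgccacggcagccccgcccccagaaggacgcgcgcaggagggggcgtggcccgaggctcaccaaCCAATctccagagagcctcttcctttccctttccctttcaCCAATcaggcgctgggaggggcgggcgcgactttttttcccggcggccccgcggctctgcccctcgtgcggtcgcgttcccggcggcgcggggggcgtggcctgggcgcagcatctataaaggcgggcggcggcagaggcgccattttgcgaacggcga
SETMAR: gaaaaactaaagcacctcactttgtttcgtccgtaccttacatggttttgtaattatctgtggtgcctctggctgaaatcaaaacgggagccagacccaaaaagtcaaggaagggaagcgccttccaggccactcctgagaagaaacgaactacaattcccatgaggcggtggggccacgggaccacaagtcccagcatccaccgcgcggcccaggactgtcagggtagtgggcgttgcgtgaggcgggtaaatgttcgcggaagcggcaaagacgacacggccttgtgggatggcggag
SCML1: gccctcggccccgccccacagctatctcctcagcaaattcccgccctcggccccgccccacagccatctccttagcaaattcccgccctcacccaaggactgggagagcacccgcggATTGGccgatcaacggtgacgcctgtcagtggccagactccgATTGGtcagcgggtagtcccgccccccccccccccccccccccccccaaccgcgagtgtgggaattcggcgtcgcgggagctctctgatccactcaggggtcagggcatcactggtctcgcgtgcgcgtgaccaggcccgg
TGACGTCA was found once in PPP1R15A, at bases -58 to -51, in 1.85% of all promoters and in 2.64% of the promoters of kept genes. OAZ1 and SCML1 each held 2 copies of CCAAT, those of OAZ1 on the gene's strand and those of SCML1 on the opposite strand. SETMAR held neither motif in these 300 bases.

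**Figure D2:**
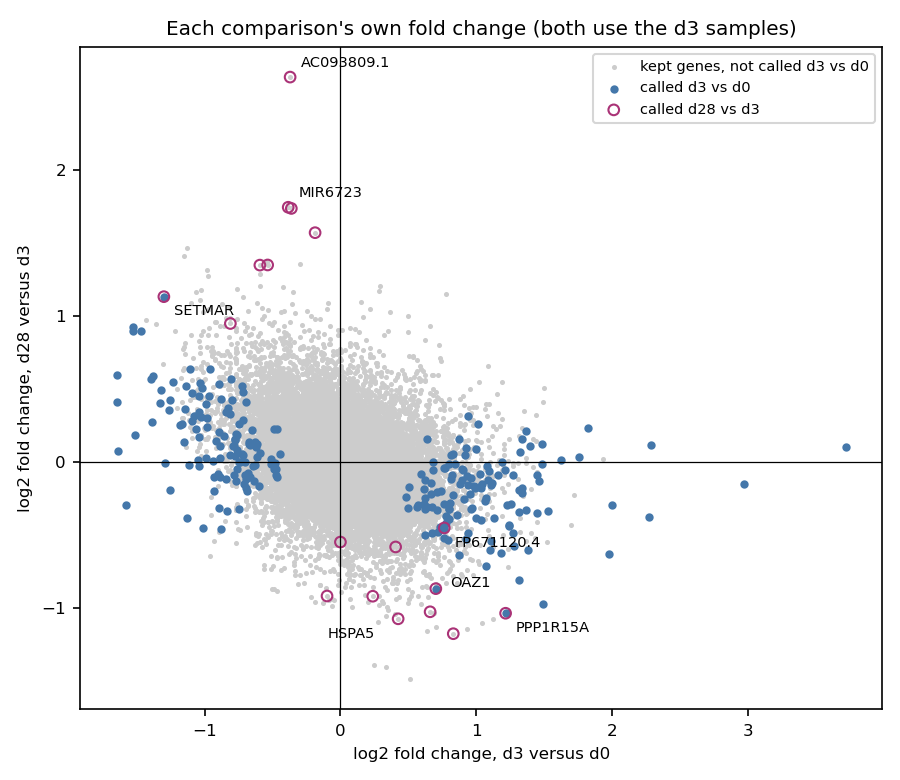
Each point is 1 of the 15637 genes, with its log2 fold change from d0 to d3 on the horizontal axis and from d3 to d28 on the vertical axis. The reversed entries PPP1R15A (-1.04), OAZ1 (-0.87) and FP671120.4 (-0.45) lie at the lower right and SETMAR (1.13) at the upper left, and the other 242 genes called between d3 and d0 lie between -0.97 and 0.93 on the vertical axis. Both axes use the d3 samples.

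The other 242 genes called between d3 and d0 were not called between d28 and d3. The 124 genes called higher at d3 had a median log2 fold change of 0.96 from d0 to d3, -0.21 from d3 to d28, and 0.78 from d0 to d28. The 122 called lower had -0.84, 0.12 and -0.69. At an unadjusted p below 0.05 (edgeR), 37 of the 124 (29.8%) were lower at d28 than at d3 and 0 were higher. Over all genes, 4.83% were lower. Of the 122, 15 (12.3%) were higher at d28 and 1 (0.82%) was lower, beside 4.18% higher over all genes. For 215 of the 246 genes the 95% interval of the change from d3 to d28 lay within -1 and 1. Both medians from d0 to d3 also lie inside that range. A gene that returned to its d0 level could thus be counted too, so the count does not separate lasting from reversed changes. Both sets of called genes were chosen with the d3 samples, so their medians and shares from d3 to d28 are given as a description. The filter used d3 and d28 reads only. It therefore kept genes low at d0 alone and left out genes that were low at both d3 and d28.

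The 6 genes with the smallest p between d3 and d0 in each direction, among those not called afterwards, show these levels, and they were chosen after the values were seen. PRR34-AS1, a long noncoding RNA gene, had 2.82 to 8.19 CPM at d0, 41.1 to 54.6 at d3 and 35.3 to 47.6 at d28. Its change from d3 to d28 was -0.15, with a 95% interval from -0.64 to 0.33. MIRLET7BHG, the host gene of let-7b, had 27.9 to 50.7 at d0, 79.2 to 96.9 at d3 and 81.0 to 86.6 at d28 (change -0.09, interval -0.45 to 0.26). AL121672.1 had at most 3.10 at d0, 24.6 to 30.6 at d3 and 27.2 to 36.0 at d28. In these 3 genes d3 and d28 overlapped and both were above d0. PRR34-AS1 and AL121672.1 had no more than 3 reads in any d0 sample, where 3 reads equal 8.19 to 9.29 CPM. Their d0 levels and the size of their rise are therefore uncertain, and they passed the filter through their d3 and d28 reads. AC010619.2, FP236383.3 and FP671120.3 made up the rest, with changes of -0.21, -0.42 and -0.29 from d3 to d28.

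In the other direction, RUNX1T1, the corepressor ETO that is itself a fusion partner in leukemia, had 53.5 to 103.7 at d0, 14.4 to 33.7 at d3 and 18.00 to 38.5 at d28. Its change from d3 to d28 was 0.08, with an interval from -0.56 to 0.71. DESI2 had 294 to 341 at d0, 99.0 to 218.5 at d3 and 151 to 165 at d28 (change -0.10). ADSS, an enzyme of adenine nucleotide synthesis, had 177 to 240.2 at d0, 108 to 113 at d3 and 102 to 135 at d28 (change 0.11). SNORD3B-1, a copy of the U3 small nucleolar RNA, had a change of 0.14, but its reads can be split with near-identical copies. HDHD5 stood at 30.6 to 34.5 at d3 and 39.6 to 60.0 at d28, with a change of 0.57 (interval 0.07 to 1.07, adjusted p = 0.475).

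No gene continued at the adjusted threshold. PRDM9, the meiotic histone methyltransferase that places recombination hotspots, was the 1 gene of the 246 that kept its direction at an unadjusted p below 0.05. The d3 samples had 265, 302.5 and 264.5 CPM, below the 408.5 to 492 of d0. The d28 samples had 226.5, 223.5 and 205, and Mock had 378 to 409. The groups d0, d3 and d28 did not overlap and descended in that order. The change was -0.74 from d0 to d3 (adjusted p = 3.55e-06) and -0.32 ± 0.12 (SE) from d3 to d28, which did not pass (edgeR, adjusted p = 0.319). From d0 to d28 it was -1.07 (adjusted p = 1.12e-12).

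Of the 19 genes with the same sign at an unadjusted p below 0.05 in both comparisons, IER5 had the smallest p from d3 to d28. IER5 is an immediate early gene linked to the heat shock factor HSF1. Its 3 levels were 104, 81.0 and 90.4 CPM at d3 and 62.3, 55.5 and 54.5 at d28, below 126 to 130 at d0. The change from d3 to d28 was -0.66 (adjusted p = 0.147) and that from d0 to d28 was -1.12 (adjusted p = 4.56e-05). Among the 5 with higher values in both comparisons was KMT2A.

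KMT2A and AFF1 are partly contained in both transgenes, and the table does not show whether reads of a vector were counted with the gene. KMT2A had 114, 129.6 and 138 CPM at d3 and 192.5, 144 and 151 at d28, so that no d28 sample was below a d3 sample. The change of 0.39 ± 0.14 (SE) did not pass (edgeR, adjusted p = 0.291), and it was 0.21 without d28 replicate 1. From d0 to d28 KMT2A was higher by 0.94 (adjusted p = 2.46e-04), with 67.6 to 98.3 at d0 and 58.8 to 68.3 in Mock. AFF1 had 113 to 136 at d3 and 135 to 151 at d28 (change 0.11, adjusted p = 0.869). The loss of the AF4-MLL vector was thus not visible as a lower level of either gene.

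The remaining genes lower at d28 had no call between d3 and d0. RHOB, a small endosomal GTPase and immediate early gene, had 111, 91.8 and 105 CPM at d3 and 66.8, 51.0 and 28.9 at d28. Its change was -0.92 ± 0.19 (SE; adjusted p = 0.00432), and d0 had 95.5 to 121, so that d28 was also below d0 (-1.02, adjusted p = 0.00114). The call was lost without d28 replicate 2 (adjusted p = 0.102), d28 replicate 3 (0.0649) or d3 replicate 1 (0.0797). TUBB4B, a widely used beta-tubulin, had 81.8, 81.0 and 87.1 at d3 and 40.8, 42.0 and 38.5 at d28. Its change was -1.03 ± 0.21 (adjusted p = 0.00497), lost without d28 replicate 1 (0.104) or 2 (0.0749). The gene overlaps CIMIP2A, listed in the table as FAM166A, which had -0.88 (adjusted p = 0.0854), and reads of the overlap cannot be assigned to 1 of the 2 genes.

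HOTTIP is the long noncoding RNA at the 5′ end of the HOXA cluster that binds WDR5 and keeps the MLL complex at HOXA genes. It had 59.4, 82.8 and 54.2 CPM at d3 and 21.5, 36.0 and 32.1 at d28, with 14.1 to 49.5 at d0. The change from d3 to d28 was -1.18 ± 0.25 (SE; adjusted p = 0.00844), lost without d28 replicate 1 (0.36) or d3 replicate 2 (0.18). Its neighbour HOXA13 had -0.12 (adjusted p = 0.906).

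DNASE1L1, a member of the DNase I family, had 125, 137 and 108 at d3 and 70.2, 55.5 and 70.6 at d28, with a fold change of -0.92 ± 0.17 (adjusted p = 6.34e-04), lost without d28 replicate 2 (0.0807). It overlaps RPL10, with -0.45 (adjusted p = 0.0964), and TAFAZZIN, listed as TAZ, with -0.65 (adjusted p = 0.223). GSTO2, an omega-class glutathione transferase, had 253.5, 230.4 and 217 at d3 and 156, 162 and 164 at d28. Its change of -0.55 ± 0.12 (adjusted p = 0.0219) was lost without d28 replicate 1 (0.231), d28 replicate 2 (0.165) or d3 replicate 1 (0.249). FASTK, a mitochondrial RNA-binding kinase-like protein, had 172 to 195.5 at d3 and 100.5 to 148 at d28, with a fold change of -0.58 (adjusted p = 0.0344). The call of FASTK was lost without d28 replicate 1 (0.104), d28 replicate 2 (0.419), d3 replicate 2 (0.123) or d3 replicate 3 (0.194). Just past the threshold were CRELD1, with -0.93 (adjusted p = 0.0562), and the cytoplasmic actin gene ACTG1, with -0.63 (adjusted p = 0.0599).

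The protein-coding genes higher at d28 had low levels. SCML1, a Polycomb-like protein gene on the X chromosome, had 9.63, 23.4 and 34.5 CPM at d3 and 52.1, 70.5 and 44.9 at d28. Its change was 1.35 ± 0.28 (SE; adjusted p = 0.00471), lost without d28 replicate 2 (0.239) or d3 replicate 1 (0.249), and d0 spread from 16.9 to 49.5. SUSD2, a sushi domain membrane protein, had 16.0, 25.2 and 18.1 at d3 and 53.2, 51.0 and 41.7 at d28, with a fold change of 1.35 ± 0.28 (adjusted p = 0.00638). It was lost without d28 replicate 1 (0.137), d28 replicate 2 (0.0807), d3 replicate 1 (0.131) or d3 replicate 3 (0.0539).

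ACP4, a testis acid phosphatase, and LILRB5, a leukocyte immunoglobulin-like receptor, both on chromosome 19, were called with adjusted p = 0.0219 each. ACP4 had 35.3 to 45.0 at d3 and 72.5 to 99.5 at d28 (change 0.95), and d0 had 62.0 to 89.8. LILRB5 had 6.57 to 16.2 at d3 and 30.6 to 54.5 at d28 (change 1.57), with 5.46 to 18.6 at d0. Both calls were lost without d28 replicate 1, 2 or 3 or d3 replicate 1 or 3, with adjusted p-values of up to 0.249 for ACP4 and 0.262 for LILRB5.

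The 3 entries with the smallest p-values were higher at d28, and 2 of them kept a nearly constant ratio to the mitochondrial reads. MIR6723 had 1163, 1055 and 690.0 CPM at d3 and 3738, 2948 and 3012 at d28, with a fold change of 1.74 (edgeR, adjusted p = 6.02e-33). AL669831.3 had 2159 to 3433 at d3 and 8653 to 11790 at d28, also 1.74 (adjusted p = 3.72e-29). Over the same samples the mitochondrial reads per nuclear read rose by 1.72 on the log2 scale, from 0.51 to 0.853 at d3 to between 2.08 and 2.72 at d28. Per 100000 mitochondrial reads, MIR6723 had 138, 140 and 138 reads at d3 and 136, 142 and 138 at d28, and AL669831.3 had 409 to 431 and 402 to 430. Against mitochondrial reads, therefore, d28 and d3 overlapped in both entries. AC093809.1 had 17.7 to 19.7 CPM at d3 and 82.5 to 148 at d28 (change 2.63, adjusted p = 2.99e-17), and 2.81 ± 0.987 (SD) against 4.73 ± 0.727 per 100000 mitochondrial reads. For all 3 entries the part of mitochondrial sequence in these reads was not tested.

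The medians of whole chromosomes moved little after d3. Those of the kept genes from d3 to d28 lay between -0.058 (chromosome X) and 0.052 (chromosome 18). From d0 to d3 they had ranged from -0.19 (chromosome 4) to 0.35 (chromosome 15). Of the genes called higher at d3 than at d0, 43 lay on chromosome 15 (of 515 kept genes), 19 on chromosome 17 (of 835) and 12 on chromosome 19 (of 864). Of those called lower, 34 lay on chromosome 1 (of 1462) and 10 on chromosome 17. The 43 genes on chromosome 15 had a median of 1.08 from d0 to d3 and -0.16 from d3 to d28, and the 34 on chromosome 1 had -0.89 and 0.17. Normalizing each chromosome by itself gave 8 higher and 11 lower genes between d28 and d3.

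**Figure D3:**
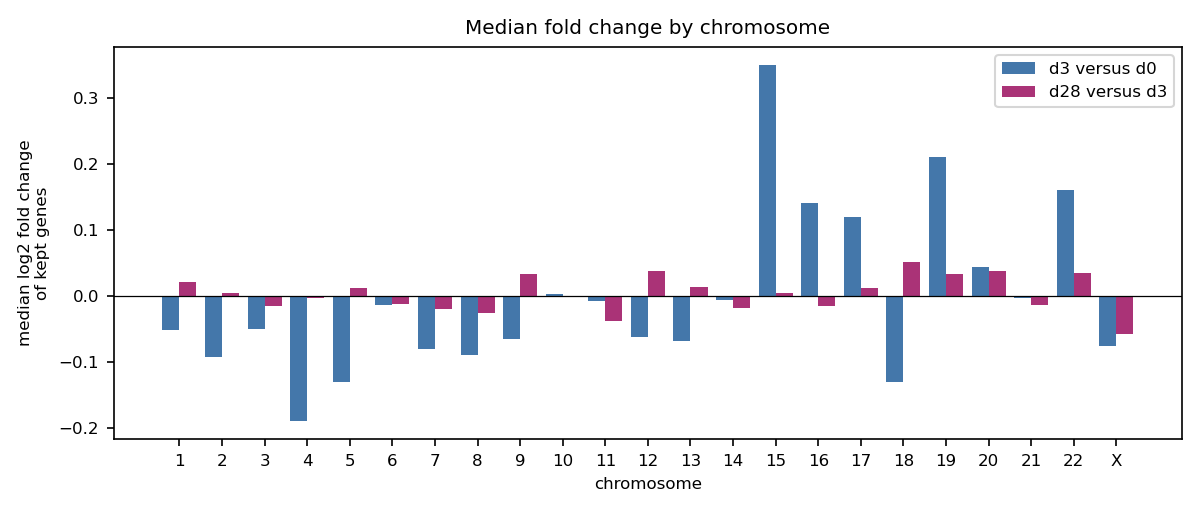
Median log2 fold change of the kept genes on each chromosome from d0 to d3 and from d3 to d28. The d3 to d28 bars stay within -0.058 and 0.052, while the d0 to d3 bars reach 0.35 on chromosome 15 and -0.19 on chromosome 4.

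Gene lists were described by counts and medians, since the d28 and d3 fold changes of all genes centred on -0.0035 and 50.5% of genes lay below zero. Of 19 lists, 17 held no called gene, which with 0.115% of all genes called says nothing about those lists. The lists with the lowest medians were the cytosolic ribosomal proteins and the heat shock response. Of 79 kept ribosomal protein genes, 67 (84.8%) lay below zero, with a median of -0.28 from d3 to d28 beside 0.28 from d0 to d3, and 0.03 from d0 to d28. RPL12 had 80.2, 88.2 and 70.6 CPM at d3 and 55.5, 37.5 and 41.7 at d28 (change -0.77, adjusted p = 0.112), and RPL3 had 255 to 277 and 183 to 206 (change -0.40, adjusted p = 0.164). RPS19, RPL13 and RPL39 had been called higher at d3 than at d0, and had -0.39, -0.31 and -0.43 from d3 to d28, not called.

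Of 26 kept heat shock genes, 23 (88.5%) lay below zero, with a median of -0.18, and 0 were called (edgeR). The inducible HSP70 gene HSPA1B had 122, 122 and 107 CPM at d3 and 72.5, 79.5 and 77.0 at d28 (change -0.62, adjusted p = 0.112). The d28 samples of HSPA1B lay within the range of d0, 71.0 to 84.5. The gene is a near-identical copy of HSPA1A, which had -0.44, and reads of the pair may be divided between them. HSP90AB1, a constitutive cytosolic HSP90, had -0.50, and the mitochondrial HSPA9 and HSPD1 had -0.42 and -0.21. Replication-dependent histone genes had a median of -0.15, with 34 of 46 below zero.

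The lists closest to the fusion proteins were among the 17 without a called gene. Of 21 kept genes of the MLL complex, 7 lay below zero, with a median of 0.11. Its core subunits WDR5, RBBP5, ASH2L and DPY30 had -0.06, -0.23, -0.06 and 0.16, and the cofactor menin (MEN1) had -0.07. HCFC1, a partner of MLL, had been called higher at d3 than at d0 (0.62) and had -0.32 from d3 to d28 (adjusted p = 0.336). Of 19 genes of the AF4 family and super elongation complex, 7 lay below zero, with a median of 0.05. CDK9, the kinase of P-TEFb, had 0.53, AFF4 0.02 and the methyltransferase gene DOT1L 0.31. ELL2, called lower at d3 than at d0 (-0.77), had 0.15 from d3 to d28. Among 29 kept target genes of MLL fusions, 21 lay below zero, with a median of -0.07, and HOXA9, MEIS1, RUNX1, MYC and MEF2C had 0.28, -0.09, -0.17, -0.33 and 0.32. ZEB2, called lower at d3 (-0.48), had -0.01.

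The other lists had medians from -0.15 to 0.19. Polycomb genes had 0.02 over 31 genes, with RBBP4, a histone-binding subunit of PRC2, at 0.53 (adjusted p = 0.0964) and CBX8, called higher at d3 than at d0, at -0.29. Interferon genes had 0.19 over 19 genes, and JAK1, called lower at d3 (-0.96), had 0.64 (adjusted p = 0.336). Very long genes had 0.13, with 8 of 34 below zero, and the HEK293 and blood cell markers had -0.15 and -0.11. Immediate early genes had -0.05, p53 targets -0.05 and sterol synthesis genes 0.01. The nuclear genes for mitochondrial proteins had medians of -0.06 for mitochondrial DNA replication and transcription, -0.02 for mitochondrial ribosomal proteins and -0.03 for the respiratory chain.

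**Figure D4:**
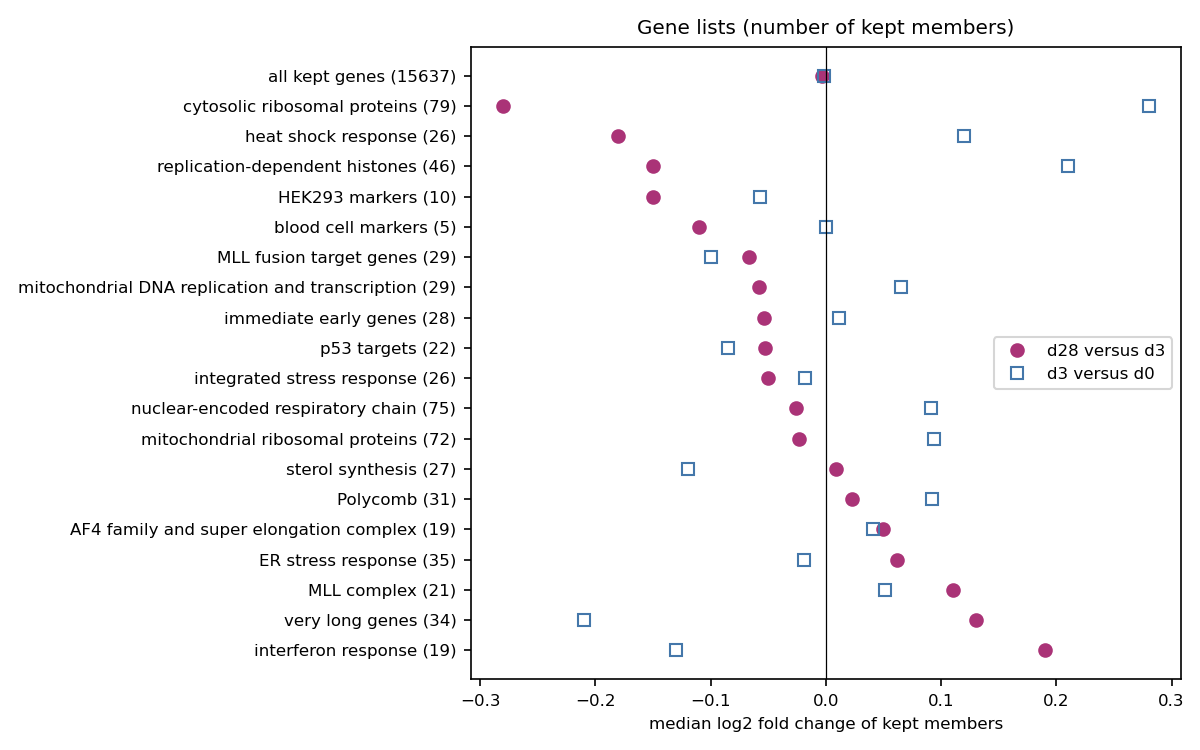
Median log2 fold change of the kept members of each gene list, from d3 to d28 (filled circles) and from d0 to d3 (open squares), with the number of members in brackets. The ribosomal protein genes lie furthest to the left at -0.28 for d28 against d3, and all genes lie at -0.0035.

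Lists of short genes tended to lie below zero, and a gradient over length ran through all genes. The lists followed length only loosely. Mitochondrial ribosomal protein genes (median length 8.6 kb) had -0.02, heat shock genes (22.1 kb) had -0.18 and target genes of MLL fusions (116 kb) had -0.07. Over the 14014 kept genes with a RefSeq length, the median log2 fold change from d3 to d28 was -0.13 for 777 genes under 3 kb, -0.09 from 3 to 10 kb, -0.015 from 10 to 30 kb, 0.035 from 30 to 100 kb, 0.08 from 100 to 300 kb and 0.085 over 300 kb. From d0 to d3 the medians ran the other way, with 0.07 under 3 kb, 0.09 from 3 to 10 kb and -0.16 over 300 kb. Ordered by CPM per kb in Mock, the densest 10% of genes had -0.12 and the sparsest 0.13 from d3 to d28. Spearman's rank correlation over these 14014 genes, which share their libraries, was 0.23 with length and -0.28 with density.

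The shift was seen in each d28 sample. The densest 10% of genes took 15.9%, 16.1% and 15.9% of the kept reads at d3 and 14.7%, 14.9% and 14.7% at d28, with 15.1 to 15.3% at d0 and 15.7 to 16.0% in Mock. The d28 samples were below all others. Genes over 300 kb took 4.27 to 4.37% at d3 and 4.59 to 4.62% at d28, with 4.77 to 4.85% at d0 and 4.27 to 4.49% in Mock, so on this measure the d28 samples lay below d0 and above d3 and Mock. Neither difference could fall below an exact permutation p of 0.1 with 3 samples against 3 (both p = 0.1, adjusted p = 0.167 over 5 tests). With the trend over length removed, HSPA5 still fell, by 0.99 on the log2 scale (adjusted p = 3.05e-09), whereas FASTK was no longer called (-0.47, adjusted p = 0.225). The part of the mitochondrial share in the gradient was not tested.

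**Figure D5:**
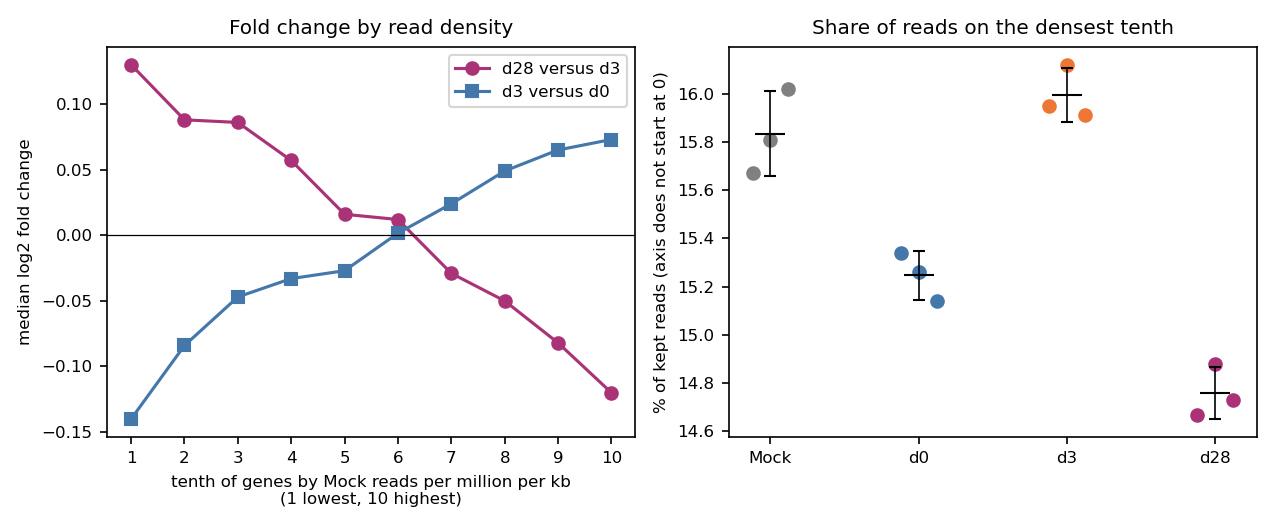
Left, median log2 fold change of 10 equal groups of genes ordered by Mock CPM per kb, which falls from 0.13 to -0.12 for d28 against d3 and rises for d3 against d0. Right, the share of kept reads on the densest 10% in each sample, with the mean and SD of 3, where d28 lies at 14.7 to 14.9% and d3 at 15.9 to 16.1% (the axis does not start at 0).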

How the data were processed

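ATAC-Seq reads of 12 samples, 4 groups of 3 biological replicates, were used. The authors deposited raw counts of reads per gene entry, without normalization. The submitters' processing notes name bcl2fastq, Bowtie2, HTSeq and the build GRCh38. Versions, the interval counted per gene, the read shift and the removal of duplicates are not given in the sources used here. Samples were grouped by their labels, but that d28 cells had carried AF4-MLL comes from the study's methods. P-values set differences against the spread between these replicates. For the edgeR p-values, that spread was estimated over all 12 samples, with information shared across genes. A very small edgeR p-value, and the standard error and interval beside it, thus do not rest on a gene's own d28 and d3 replicates alone.

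Mitochondrial genes and their nuclear copies were dropped before normalization, and genes with a mean raw count of at least 10 over the 6 d28 and d3 samples were kept. The counts of all 12 samples were fitted with edgeR 4.0.16 in R 4.3.3 (TMM factors from 0.984 to 1.02, quasi-likelihood F test, Benjamini-Hochberg adjustment). DESeq2 1.42.0, other scalings, filters, thinning to 249221 nuclear reads, leave-one-out fits and removal of a trend over gene length were alternatives, the last of them chosen after seeing the data. Read totals and shares were tested by exact permutation, two-sided. Standard errors of fold changes were taken from the F statistic. No 2 replicates were as close as sampling noise would make them (chi-square per degree of freedom of 1.05 to 1.31).

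Named by rule were up to 10 called genes with the smallest p in each direction, all reversed or continued genes, called members of the lists, HSPA5, KMT2A, AFF1 and the 2 genes just past the threshold. The examples from the lists and of the genes called between d3 and d0 were chosen after their values were seen. Members and lists were chosen with earlier results of these data known. Symbols of 14014 of the kept genes (89.6%) matched RefSeq (GRCh38.p14), which gave lengths, positions and promoters. For the others no position is given. Entries joining several identifiers (100) were kept as they are. Plots used Python 3.11.15 with matplotlib 3.10.9.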

Additional observations from a re-analysis of the deposited data

Results flagged for a closer look

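Reads on the nuclear copies of mitochondrial genes, which were set aside before normalization, made up 6.11% ± 0.236 (SD, n = 3) of all reads at d28. The share was 3.68% ± 0.545 at d3, 4.08% at d0 and 2.47% ± 0.0809 in Mock, so the value was flagged for lying above the control samples. The mitochondrial share ran in the same order, with 65.5% at d28, 39.4% at d3, 44.0% at d0 and 26.8% in Mock. In replicate 1, 225927 reads on the copies stood beside 2423552 mitochondrial reads at d28, 48778 beside 523482 at d3 and 11140 beside 116898 in Mock. Whether the copies held a signal beyond the mitochondrial share was not tested. Of these copies, MTCO1P12 had 2790 to 2830 reads per 100000 mitochondrial reads at d28 and 2890 to 2960 at d3. MTCO2P12 had 575 to 595 against 579 to 593, and MTATP8P1 had 86.0 to 88.3 against 53.2 to 58.6.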

How the results depend on the processing

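Compared with 8 genes higher and 10 lower at d28 than at d3, DESeq2 and thinned libraries each gave 3 higher and 1 lower. No filter gave 5 higher, and library sizes alone gave 17 lower. The 3 genes that rose and then fell became 0 with DESeq2 or thinning and 5 without a filter. The 1 gene that fell and then rose became 0 with DESeq2, thinning or no filter, and 2 with RLE factors, filterByExpr, factors per chromosome or the length trend removed. With 1 library left out, 3 to 8 genes were higher and 4 to 14 lower, 1 to 5 rose and then fell, and 0 to 3 fell and then rose. The lowest counts came without d28 replicate 2 (3 higher, 4 lower) and d28 replicate 1 (4 and 4), the highest without d3 replicate 3 (14 lower). The count of continued genes was 0 in each of the 20 alternatives. The difference in nuclear read totals between d28 and d3, 35320 reads, ranged from -98410 without d28 replicate 1 to 190500 without d28 replicate 3. Other causes of these changes were not tested. The 22 named genes kept their direction in each alternative, and in 353 settings also their side of the threshold, while 81 settings ended a call and 6 made one.

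Deviations of same-numbered d28 and d3 samples had correlations of -0.0372, -0.0531 and -0.000228 over 8344 genes. Of the 3 samples, 0 correlated best with its own number. Replicates differed by little more than sampling noise, so this check cannot show whether the replicate numbers pair the samples. With the replicate number as a block, 7 genes were higher and 11 lower, 4 rose and then fell and 2 fell and then rose, without SETMAR (adjusted p = 0.0513) and FASTK (0.0691) among the calls.

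Depth limits the result. A count of 3 reads equals between 3.4 and 9.62 CPM at d28 and between 8.19 and 9.29 CPM at d0.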
